A study of Mus musculus with 12 samples.

Results

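The genes described here encode factors that start, stop or regulate transcription by RNA polymerase I, the enzyme that copies the ribosomal RNA genes (rDNA). They are 10 of the 53715 genes in the tables, taken by exact gene name: Ubtf, Rrn3, Taf1a, Taf1b, Taf1c, Taf1d, Tbp, Ttf1, Baz2a and Sirt7. RNA was sequenced in 12 bulk libraries of mouse material, in 6 groups of 2. ES cells derived from the inner cell mass, grown in LIF/2i medium over a layer of mouse embryonic fibroblast (MEF) feeder cells that was depleted before RNA was taken, were given CX-5461, rapamycin or rotenone, or were left untreated as control. C57BL/6J embryos were given CX-5461 or left untreated; per the study's methods they came from superovulated females, were treated as morulae, grew to blastocysts in culture and were pooled within each library. The ES cells were wild-type E14 in those methods, a single line, and the labels list no engineered allele in any group.

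CX-5461 is a small molecule used as an inhibitor of polymerase I, rapamycin inhibits the growth-signalling kinase mTOR, and rotenone inhibits complex I of the mitochondrial respiratory chain. The labels name the agent and give no dose or time. They do not say whether libraries of a group were from different cultures or litters, although the study counts them as independent experiments, so the p-values below measure spread between libraries and that spread may be technical. The comparison asks whether cells in which polymerase I was inhibited also changed the transcripts of proteins that load it, stop it or regulate rDNA transcription. It also asks whether inhibitors of other processes did the same.

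Each rDNA repeat is read by polymerase I from a promoter on which UBF (the product of Ubtf) and selectivity factor SL1 (TBP with the subunits encoded by Taf1a to Taf1d) assemble. RRN3, also called TIF-IA, then joins the polymerase to SL1 and is a main point at which growth signals act on rRNA synthesis. TTF1 binds terminator elements downstream of the rRNA coding region, where it stops the polymerase, and another element upstream of the promoter, where it can recruit the silencing complex NoRC that contains BAZ2A. ES cells divide fast and make much rRNA, and the nucleolus forms around the active repeats.

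Values are TPM (transcripts per 1000000, a level per transcript length), each library scaled to 1000000, and changes are differences of log2(TPM + 1) tested by limma across 17638 genes in ES cells and 13289 in embryos with Benjamini-Hochberg adjustment. TPM holds no read total, so the sequencing depth of these libraries is unknown. The deposited values of 11 libraries summed to between 999805 and 999914, whereas embryo control replicate 1 summed to 639063. In ES cells the median gene differed by 0.43 on the log2 scale between CX-5461 and control, by 0.13 for rapamycin and by 0.27 for rotenone, so a member's change is also given relative to that median. The summed level of 24 fibroblast markers was 6475 to 6937 TPM with CX-5461, 2957 to 3494 TPM with rapamycin and 5879 to 6291 TPM with rotenone, against 1784 to 2191 TPM in control ES cells, with none of the 24 at 0, and 24 of the 24 were called higher with CX-5461 and with rotenone. The summed level of 12 ES cell and epiblast markers was 5127 to 5224 TPM with CX-5461, 7612 to 7805 TPM with rapamycin and 6470 to 6514 TPM with rotenone, against 7539 to 7720 TPM in control. Of these 12, 1 was called higher and 6 lower with CX-5461, and 2 higher and 4 lower with rotenone. The summed level of 12 primitive endoderm markers was 512 to 581 TPM with CX-5461, 248.96 to 362 TPM with rapamycin and 485 to 492 TPM with rotenone, against 248 to 279.9 TPM in control, and 7 of the 10 tested were called higher with CX-5461 and with rotenone. This list holds laminin and collagen genes, with Lamc1 alone at 139.5 to 282.6 TPM over the ES libraries, and shares Pdgfra with the fibroblast list. Gata4, Sox7 and Foxa2 reached at most 2.37, 0.48 and 0.50 TPM in ES libraries, Gata6 12.3 and Sox17 6.18 TPM. For 13 trophectoderm markers the summed level was 215 to 227 TPM with CX-5461, 132 to 136 TPM with rapamycin and 149.9 to 154 TPM with rotenone, against 130.3 to 148 TPM in control. Of the 10 tested, 6 were called higher and 1 lower with CX-5461, and 4 higher and 0 lower with rotenone. Beside the counts of each marker list, 42% of all genes were called higher and 11% lower with CX-5461. With rotenone 30.6% of all genes were called higher and 9.57% lower. Genes whose exons cover 5000 bases or more deviated from their mean over the ES libraries by a median of 0.20 and 0.36 in the CX-5461 libraries, -0.03 and -0.23 in the rapamycin libraries and 0.24 and 0.21 in the rotenone libraries, against -0.52 and -0.23 in control replicates 1 and 2 (log2). Whether these marker levels reflect RNA of other cell types was not tested. The part of any such RNA and of this length trend in the changes below was not tested either. In bulk RNA fewer cells of a type and less RNA per cell cannot be told apart.

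The stretches upstream of Ttf1, Rrn3, Taf1c and Taf1d are shown because these are 4 of the 5 members called changed with CX-5461 in TPM, the first 3 higher and Taf1d lower. Sirt7, the other member called, is not shown. Each stretch is the 250 bases before a RefSeq start site (build GRCm38.p6), written 5′ to 3′ along the gene's strand. Capitals mark every match, on either strand, to the motifs searched. These were the E-box, spelled CACGTG, the CCAAT box, spelled as in its name, the TATA element, spelled TATAAA, the GC box, spelled GGGCGG, the ETS core, spelled CCGGAAG, the AP-1 element, spelled ATGACTCA, and the NRF1 element, given by name. The 4 stretches lie at chr2:29060013-29060262 (plus strand), chr16:13780449-13780698 (plus), chr8:119605207-119605456 (minus) and chr9:15305964-15306213 (plus).
Ttf1: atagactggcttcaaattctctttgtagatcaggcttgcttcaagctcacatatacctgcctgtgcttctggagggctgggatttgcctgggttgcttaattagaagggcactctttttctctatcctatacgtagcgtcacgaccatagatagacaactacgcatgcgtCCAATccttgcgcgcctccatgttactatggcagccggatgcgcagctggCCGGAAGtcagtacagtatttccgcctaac
Rrn3: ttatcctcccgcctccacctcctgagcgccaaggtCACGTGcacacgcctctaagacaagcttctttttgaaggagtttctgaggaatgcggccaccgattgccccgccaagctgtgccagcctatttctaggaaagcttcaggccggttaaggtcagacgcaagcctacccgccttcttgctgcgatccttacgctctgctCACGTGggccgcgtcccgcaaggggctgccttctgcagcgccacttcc
Taf1c: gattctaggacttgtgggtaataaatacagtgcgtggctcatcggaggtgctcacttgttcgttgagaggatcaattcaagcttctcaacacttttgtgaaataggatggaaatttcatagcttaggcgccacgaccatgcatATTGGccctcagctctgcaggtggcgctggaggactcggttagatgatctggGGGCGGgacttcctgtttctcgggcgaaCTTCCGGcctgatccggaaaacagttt
Taf1d: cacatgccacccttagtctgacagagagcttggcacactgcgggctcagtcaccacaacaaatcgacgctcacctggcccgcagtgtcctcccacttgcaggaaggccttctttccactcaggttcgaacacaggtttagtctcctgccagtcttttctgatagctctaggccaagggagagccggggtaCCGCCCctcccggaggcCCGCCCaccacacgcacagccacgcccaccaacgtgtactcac

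The Ttf1 stretch holds a CCAAT box 80 bases before the start and an ETS core 30 bases before it. The Rrn3 stretch holds 2 E-boxes, 215 and 48 bases before the start, and Taf1c has a reversed CCAAT box at 107, a GC box at 55 and a reversed ETS core at 27 bases before it. Another RefSeq window of Taf1c, chr8:119602597-119602896, is not shown, and CCAAT boxes were its only matches. Taf1d has 2 reversed GC boxes, 60 and 43 bases before the start, and no ETS core. Over windows that also take in the first 50 bases of the transcript, RefSeq gives 17 windows for the 10 members, all 10 matched, among 32851 in all. An ETS core was found in windows of 6 members (Rrn3, Sirt7, Taf1a, Taf1b, Taf1c and Ttf1), in 7 of the 17 windows, and 8.9% of all windows hold one. A GC box was found in 12 of the 17 windows (8 members), where 35.7% of all windows hold one, and a CCAAT box in 6 of the 17 (4 members), where 37.4% hold one. Rrn3 alone among the members had the E-box, which 7.2% of all windows hold. No member window held the TATA element (13.6% of all), the AP-1 element (1.2%) or the NRF1 element (1.0%). The matches overlapped each other only in Rrn3, where a reversed ETS core across the start shares a base with a GC box, and in 1 window of Ubtf, among its GC boxes. A match describes letters and is not a binding site.

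With CX-5461 in ES cells, 4 of the 10 members rose (Ttf1, Sirt7, Rrn3 and Taf1c) and 1 fell (Taf1d), and the transcripts of Ubtf, Taf1a, Taf1b, Baz2a and Tbp did not pass the test; Rrn3 and Taf1c changed sign under other scalings given below. Of all 17638 genes tested, 42% were called higher and 11% lower in that comparison, so 4 higher and 1 lower among 10 is about the share of the whole transcriptome. Ttf1 stood apart in size among the 10, with a change 1.06 above the median gene on the log2 scale. Its change was larger than that of 87.4% of all genes tested, and with rotenone than that of 89.0%. With CX-5461, Rrn3 and Taf1c lay 0.01 and 0.01 from the median gene. Relative to it, Taf1d (-0.73), Tbp (-0.53), Taf1a (-0.50), Taf1b (-0.49) and Ubtf (-0.35) sat on the lower side.

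**Figure D1:**
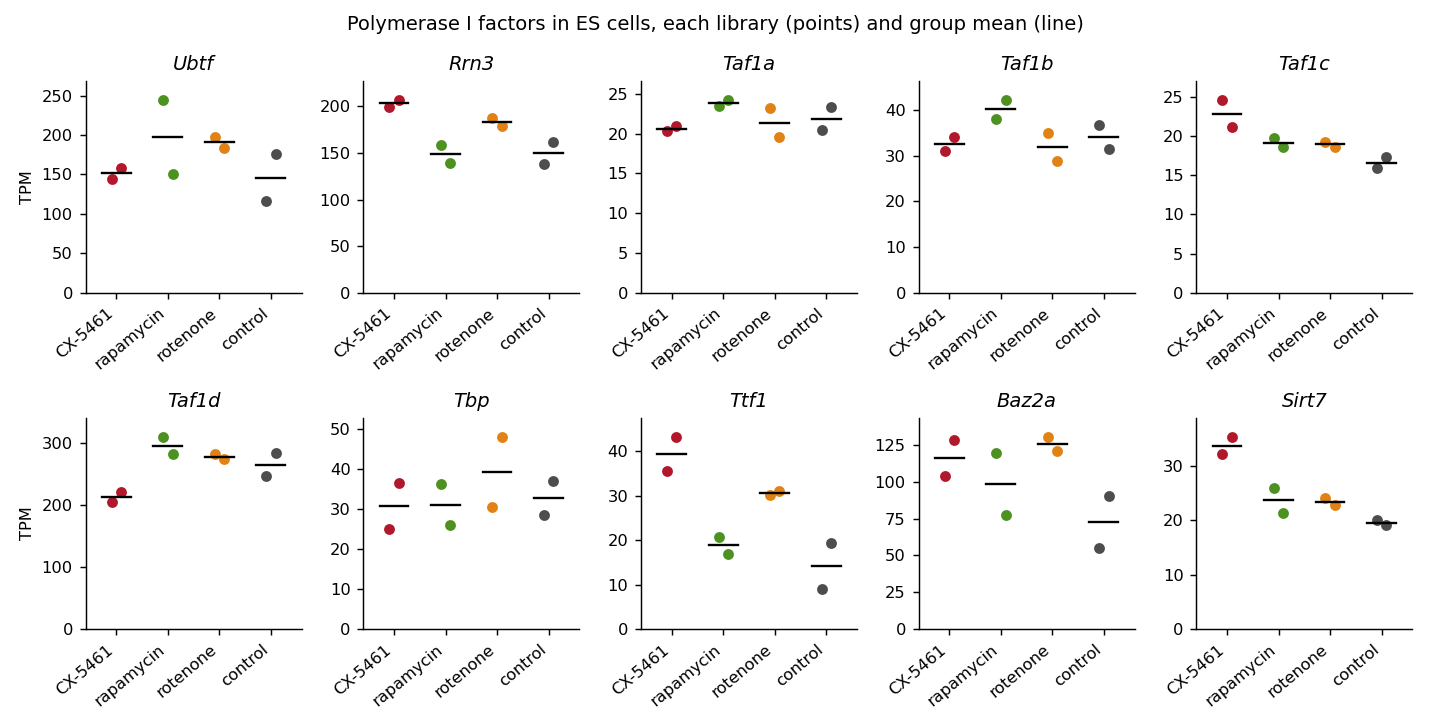
TPM of the 10 factors in the 8 ES cell libraries, each panel from 0 (points, single libraries; line, mean of the 2). In Ttf1 the CX-5461 and rotenone points lie above all control and rapamycin points, and in Taf1d the CX-5461 points (205 and 221 TPM) lie below all others.

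Ubtf (chr11:102304560-102319742, minus strand) encodes UBF, the HMG-box protein that coats active rDNA repeats and keeps them open. It stood at 145 and 158 TPM in the CX-5461 libraries, 244 and 151 TPM in the rapamycin libraries and 198 and 184 TPM in the rotenone libraries, against 116 and 175 TPM in the control libraries. The 2 control libraries enclosed both CX-5461 values, and rapamycin replicate 1 was the highest of the 8. The change with CX-5461 was 0.08 ± 0.26 (SE), with a 95% interval of -0.53 to 0.69 (adjusted p = 0.812), which includes changes of either sign. With rotenone both libraries exceeded both controls, at 0.41 ± 0.26 (SE) and adjusted p = 0.233.

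Rrn3 (chr16:13780708-13814839, plus strand), the bridge between polymerase and promoter, stood at 199.8 and 207 TPM in the CX-5461 libraries, 158 and 139.6 TPM in the rapamycin libraries and 187 and 179 TPM in the rotenone libraries, against 139 and 162 TPM in the control libraries. The CX-5461 libraries were the highest pair and did not overlap any other group, and the rotenone libraries also lay above both controls. The change was 0.44 ± 0.11 (SE) with CX-5461, a fold of 1.36 (adjusted p = 0.014), 0.29 ± 0.11 (SE) with rotenone (adjusted p = 0.0734) and -0.01 ± 0.11 (SE) with rapamycin (adjusted p = 0.979). CX-5461 also exceeded rapamycin, by 0.45 ± 0.11 (SE) (adjusted p = 0.0172). The call against control was lost without CX-5461 replicate 1 (adjusted p = 0.0552), CX-5461 replicate 2 (0.0852) or control replicate 1 (0.0543) in the limma fit.

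The SL1 subunits give polymerase I its promoter choice: TAF1B resembles the polymerase II factor TFIIB, and TAF1A, TAF1C and TAF1D complete the complex around TBP. Taf1a (chr1:183388981-183410198, plus strand) stood at 20.3 and 20.9 TPM in the CX-5461 libraries, 23.5 and 24.2 TPM in the rapamycin libraries and 23.2 and 19.5 TPM in the rotenone libraries, against 20.5 and 23.3 TPM in the control libraries. Taf1b (chr12:24498359-24558539, plus strand) stood at 31.0 and 34.2 TPM in the CX-5461 libraries, 38.1 and 42.1 TPM in the rapamycin libraries and 34.9 and 28.8 TPM in the rotenone libraries, against 36.8 and 31.5 TPM in the control libraries. In both genes CX-5461 and control libraries overlapped, and the rapamycin libraries were the highest pair. With CX-5461 the change was -0.08 ± 0.14 (SE) for Taf1a (adjusted p = 0.652) and -0.06 ± 0.14 (SE) for Taf1b (adjusted p = 0.734), with 95% intervals of -0.40 to 0.24 and -0.41 to 0.28.

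Taf1c (chr8:119597871-119605222, minus strand) stood at 24.6 and 21.2 TPM in the CX-5461 libraries, 19.7 and 18.6 TPM in the rapamycin libraries and 19.3 and 18.6 TPM in the rotenone libraries, against 15.9 and 17.3 TPM in the control libraries. Its CX-5461 libraries were the highest and its control libraries the lowest, with rapamycin and rotenone between them. The change with CX-5461 was 0.44 ± 0.13 (SE), a fold of 1.35 (adjusted p = 0.0271); it was 0.20 ± 0.13 (SE) with rapamycin and 0.18 ± 0.13 (SE) with rotenone, neither past the test. The CX-5461 call was lost without CX-5461 replicate 1 (adjusted p = 0.153), CX-5461 replicate 2 (0.0526) or control replicate 1 (0.088) in limma. Of the exon bases of Taf1c, 16.73% are shared with Dnaaf1 on the opposite strand, and whether counting used strand is not given in the sources used here. Dnaaf1 itself was at 0.0772 and 0.0302 TPM in the CX-5461 libraries, against 0.319 and 0.119 TPM in the controls.

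Taf1d (chr9:15306214-15316991, plus strand) was the most abundant of the 10 in every ES group by its mean. It stood at 205 and 221 TPM in the CX-5461 libraries, 309 and 282 TPM in the rapamycin libraries and 281 and 273 TPM in the rotenone libraries, against 246 and 283 TPM in the control libraries. Both CX-5461 values were below all 6 others, and rapamycin replicate 1 was the highest. The transcript fell by 0.31 with CX-5461 relative to control (log2, SE 0.10, adjusted p = 0.0381), by 0.47 relative to rapamycin (adjusted p = 0.0104) and by 0.38 relative to rotenone (adjusted p = 0.0379). With rotenone it was 0.07 ± 0.10 (SE) from control and with rapamycin 0.16 ± 0.10 (SE), neither past the test. The sign with rotenone turned under median-ratio scaling (-0.26) and with the length trend removed (-0.59), both called lower. In limma the call against control was lost without CX-5461 replicate 1 (adjusted p = 0.178), CX-5461 replicate 2 (0.0902) or control replicate 2 (0.125). It was also lost with no filter (0.0632), with a prior without trend (0.0868) and with the CX-5461 and control libraries fitted alone (0.0914).

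Taf1d is also a host gene: 8 snoRNA genes and 2 miRNA genes lie within exons that GENCODE annotates for it, so its reads and those of the small RNAs cannot be fully separated. The snoRNA genes summed to 78.3 and 76.0 TPM in the CX-5461 libraries, 277 and 322 TPM in the rapamycin libraries and 64.4 and 69.1 TPM in the rotenone libraries, against 339 and 284 TPM in the controls. Gm22579 made up most of the sum in ES cells, at 57.4 and 47.1 TPM with CX-5461 against 295 and 226 TPM in control. Gm22620 came next, at 19.2 and 26.8 TPM against 42.3 and 56.5 TPM, and the others were each below 1 TPM. The sum was low with both CX-5461 and rotenone, while the host transcript in TPM was low with CX-5461 and not with rotenone. These libraries were made from poly-A RNA, in which mature snoRNAs are not captured as such. No test was run on the sum.

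Tbp (chr17:15499888-15528379, plus strand), the TATA-binding protein shared by all 3 nuclear polymerases, stood at 25.0 and 36.6 TPM in the CX-5461 libraries, 36.4 and 25.9 TPM in the rapamycin libraries and 30.5 and 48.0 TPM in the rotenone libraries, against 28.7 and 37.0 TPM in the control libraries. The replicates of every group were wide apart, and CX-5461 and control overlapped. The change was -0.10 ± 0.29 (SE) with CX-5461 (95% interval -0.79 to 0.58, adjusted p = 0.788). Pdcd2, on the opposite strand, shares 19.02% of the exon bases of Tbp and was at 72.5 and 59.5 TPM with CX-5461, against 120.0 and 96.2 TPM in control.

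Ttf1 (chr2:29060262-29087656, plus strand), the terminator-binding factor, moved most among the members. It stood at 35.5 and 43.2 TPM in the CX-5461 libraries, 20.7 and 17.0 TPM in the rapamycin libraries and 30.3 and 31.1 TPM in the rotenone libraries, against 8.999 and 19.5 TPM in the control libraries. Both CX-5461 libraries were above all others, both rotenone libraries came next, and control replicate 1 was the lowest and far below the other control. The change was 1.49 ± 0.31 (SE) with CX-5461, a fold of 2.81 (adjusted p = 0.00705), and 1.15 ± 0.31 (SE) with rotenone, a fold of 2.21 (adjusted p = 0.0271). With rapamycin it was 0.47 ± 0.31 (SE) (adjusted p = 0.491). CX-5461 exceeded rapamycin by 1.02 ± 0.31 (SE) (adjusted p = 0.0383), a call lost under other scalings (0.72, 0.71 and 0.64, with adjusted p of 0.0615, 0.0506 and 0.067 by median-ratio, by quantile and with the length trend removed, in limma), and rotenone by 0.34 ± 0.31 (SE), the last with a 95% interval of -0.40 to 1.09 (adjusted p = 0.489).

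Without control replicate 1 the Ttf1 change with CX-5461 was 0.97, and it passed the limma test (adjusted p = 0.00814). Without CX-5461 replicate 2 it was 1.35 (adjusted p = 0.0513), the only omission that lost the call. The rotenone call was less firm: leaving out control replicate 1, rotenone replicate 1 or rotenone replicate 2 gave adjusted p-values of 0.0521, 0.104 and 0.107 in limma. The exons of Ttf1 cover 6023 bases, against a median of 3512 over the genes tested.

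Baz2a (chr10:128091577-128129303, plus strand) encodes TIP5, the large subunit of NoRC, which silences rDNA copies together with the ATPase encoded by Smarca5. It stood at 104 and 128 TPM in the CX-5461 libraries, 119.6 and 77.4 TPM in the rapamycin libraries and 130.2 and 121 TPM in the rotenone libraries, against 55.4 and 90.3 TPM in the control libraries. All CX-5461 and rotenone values exceeded both controls, yet the controls themselves were far apart. The change was 0.70 ± 0.28 (SE) with CX-5461 (adjusted p = 0.0689) and 0.82 ± 0.28 (SE) with rotenone (adjusted p = 0.0519), neither past the test. Without control replicate 2 the CX-5461 change was 1.05 and passed (adjusted p = 0.0161), and without control replicate 1 it was 0.35 (adjusted p = 0.32), so the choice of control library sets this result. Its exons cover 10730 bases, among the longest of the 10.

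Sirt7 (chr11:120618372-120625240, minus strand) encodes a nucleolar NAD-dependent deacylase that associates with polymerase I and promotes rDNA transcription. It stood at 32.1 and 35.3 TPM in the CX-5461 libraries, 25.9 and 21.3 TPM in the rapamycin libraries and 24.1 and 22.7 TPM in the rotenone libraries, against 20.0 and 19.1 TPM in the control libraries. The CX-5461 libraries were the highest and did not overlap any other group, and the control libraries were the lowest. The change was 0.75 ± 0.14 (SE) with CX-5461, a fold of 1.69 (adjusted p = 0.00366), and each of the 4 single omissions left it called, with adjusted p between 0.0112 and 0.0351 in limma. CX-5461 also exceeded rapamycin by 0.50 ± 0.14 (SE) (adjusted p = 0.0256) and rotenone by 0.50 ± 0.14 (SE) (adjusted p = 0.0388). With rotenone against control the change was 0.25 ± 0.14 (SE) (adjusted p = 0.182). The neighbouring gene Mafg shares 2.41% of the exon bases of Sirt7.

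Set side by side, the agents gave unequal counts. Rotenone raised 1 member, Ttf1, and lowered none, where 30.6% of all genes were called higher and 9.57% lower. By median-ratio scaling rotenone gave 1 member higher (Ttf1, 0.83) and 1 lower (Taf1d), by quantile scaling 0 higher and 1 lower (Taf1a, -0.43), and with the length trend removed 0 higher and 1 lower (Taf1d); Ttf1 was then at 0.71 and 0.66 and not called (adjusted p = 0.0551 and 0.0711 in limma). Over all genes, those scalings with rotenone called 3421 higher and 3434 lower of 17492 by median-ratio. They called 2987 and 3125 of 17638 by quantile scaling, and 2761 and 3102 with the length trend removed. Rapamycin changed 0 of 10 by limma at adjusted p under 0.05, where 0% of all genes were called higher and 0.0113% lower. At unadjusted p under 0.05 it also changed 0 of 10, where 13.3% of all genes passed. CX-5461 against rapamycin called Rrn3, Ttf1 and Sirt7 higher and Taf1d lower, where 30.9% of all genes were higher and 8.76% lower. With the other scalings that split turned to 0 higher and 4 lower (median-ratio), 1 and 3 (quantile) and 0 and 4 (length trend removed). Taf1a, Taf1b and Taf1d were called lower in all 3. Over all genes those scalings called 3766 higher and 3208 lower of 17492, 3272 and 3543 of 17638, and 3673 and 3815 of 17638. CX-5461 against rotenone called Sirt7 higher and Taf1d lower, where 17.2% and 4.93% of all genes were called in those directions. The other 3 scalings each left Taf1d lower and Sirt7 not called. Over all genes they called 2271 higher and 1539 lower of 17492, 2212 and 1960 of 17638, and 2469 and 2196 of 17638. The 3 agents share their 2 control libraries, so the changes against control are not separate lines of evidence. Every omission of 1 of the 4 libraries in the comparison of CX-5461 with rotenone removed both calls.

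**Figure D2:**
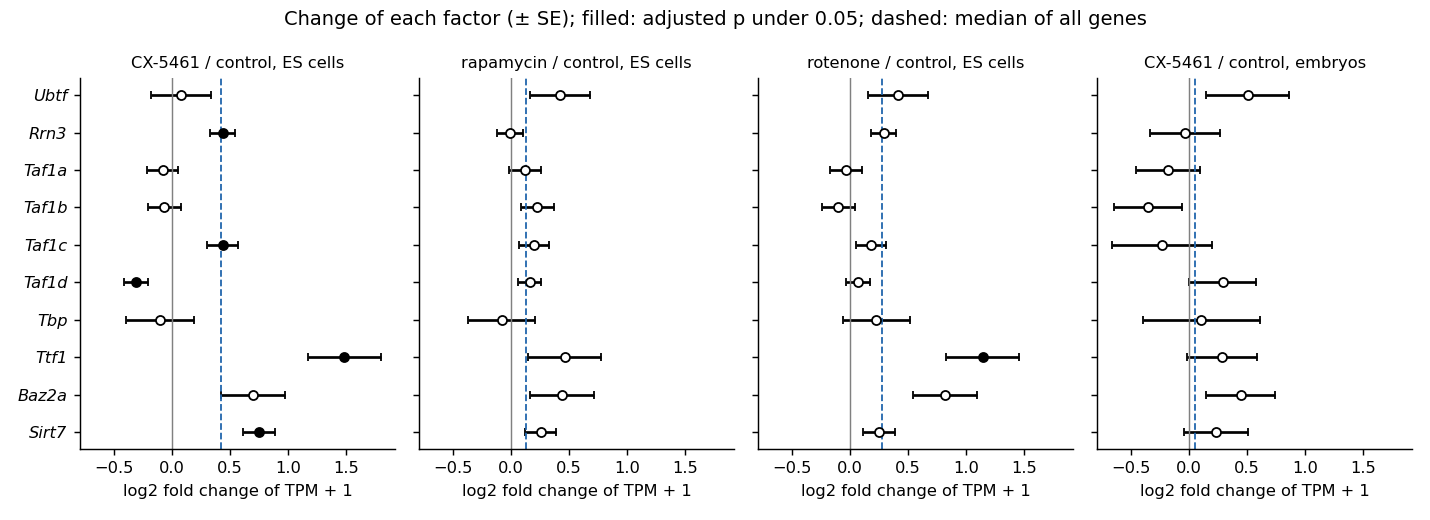
Log2 fold change of TPM + 1 for each factor (horizontal axis, ± SE; filled, adjusted p under 0.05) in CX-5461, rapamycin and rotenone ES cells against control and in CX-5461 embryos against control; the dashed line is the median of all genes. With CX-5461 in ES cells Ttf1 (1.49) and Sirt7 (0.75) lie right of the dashed line and Taf1d (-0.31) left of 0, and in embryos no point is filled.

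The ES calls depended on the scale. TPM divides by the total over all genes, and with 3 other scalings (median-ratio, quantile, and removal of the trend with exon length) the share of calls that were higher among all genes in CX-5461 against control was 51.1%, 46.0% and 47.6%, in place of 79.3%. Ttf1 stayed called higher under all 3, at 1.03, 0.98 and 0.90. Sirt7 kept its sign and lost its call, at 0.29, 0.26 and 0.22. Rrn3 was -0.04 by median-ratio and -0.05 with the length trend removed but 0.41 by quantile scaling, where it was called. Taf1c was -0.02, -0.13 and 0.01, and Baz2a 0.22, 0.50 and -0.07, none of them called.

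Taf1d was called lower by median-ratio (-0.79) and without the length trend (-1.02), and not by quantile scaling (-0.25, adjusted p = 0.0868 in limma). Taf1a was -0.54, -0.65 and -0.42, and Taf1b -0.53, -0.50 and -0.41, all called lower, although neither was called in TPM. Ubtf and Tbp were called lower only with the length trend removed, at -0.54 and -0.93. Members called higher numbered 1, 2 and 1 under the 3 scalings and members called lower 3, 2 and 5. Over all genes 4594 were called higher and 4389 lower of 17492 by median-ratio. The counts were 3827 and 4495 of 17638 by quantile scaling, and 4149 and 4565 of 17638 with the length trend removed. In TPM they were 7410 and 1940, so lower calls rose among all genes too. In every scaling Ttf1 was the highest of the 10.

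**Figure D3:**
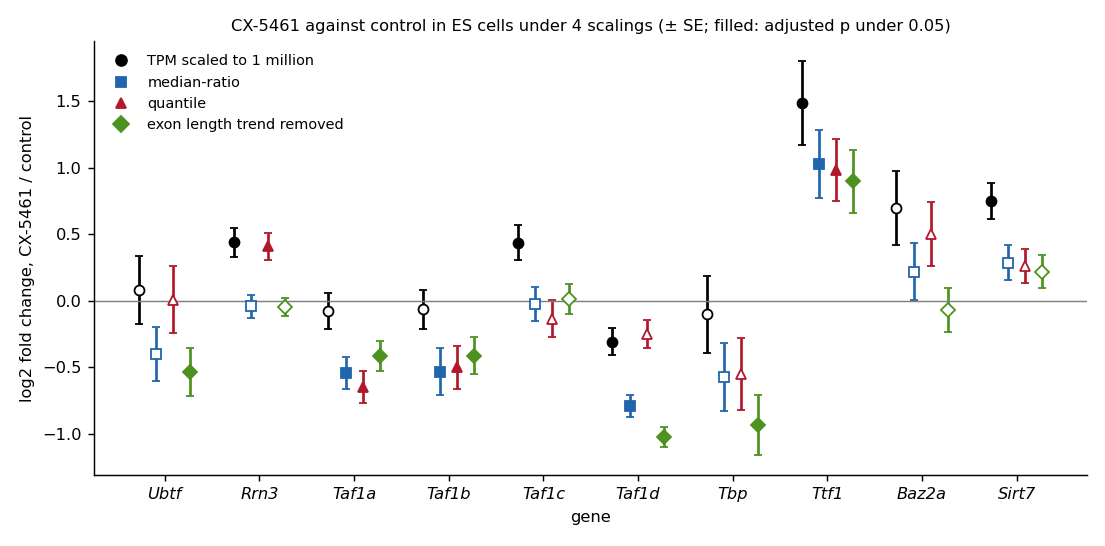
Log2 fold change with CX-5461 against control in ES cells for each factor (vertical axis, ± SE; filled, adjusted p under 0.05) under TPM scaled to 1000000, median-ratio scaling, quantile scaling and a fit without the exon length trend. Ttf1 is filled and above 0 in all 4, Rrn3 and Taf1c change sign, and Taf1a and Taf1b are filled below 0 in 3 of 4.

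In embryos none of the 10 members was called with CX-5461 by limma, where 0.00753% of all 13289 genes were called higher and 0% lower. At unadjusted p under 0.05 there were 0 of 10, where 12.4% of all genes passed. Ttf1 had 11.03 and 8.28 TPM in the CX-5461 embryos, against 8.07 and 7.28 TPM in the control embryos. Sirt7 had 14.7 and 14.3 TPM in the CX-5461 embryos, against 11.7 and 12.7 TPM in the controls. Both genes were higher in each CX-5461 library than in each control and the change was 0.29 ± 0.30 (SE) for Ttf1 (95% interval -0.42 to 0.99) and 0.23 ± 0.28 (SE) for Sirt7 (95% interval -0.42 to 0.89).

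Baz2a was likewise without overlap, which made 3 of 10 members above both controls, where 27.6% of all genes tested were; it stood at 26.0 and 19.9 TPM with CX-5461, against 18.4 and 14.8 TPM in control embryos (0.44 ± 0.30 (SE), adjusted p = 0.551). Taf1a had 17.3 and 18.6 TPM with CX-5461, against 20.1 and 20.9 TPM in control. Taf1b had 24.9 and 31.6 TPM with CX-5461, against 32.8 and 39.9 TPM in control. These 2 SL1 subunits lay below the controls in both CX-5461 libraries, at -0.18 ± 0.28 (SE) and -0.36 ± 0.29 (SE), without passing the test; 2 of 10 members lay below both controls, where 19.2% of all genes did.

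The other members overlapped between the embryo groups. Ubtf had 30.1 and 18.6 TPM with CX-5461, against 20.3 and 13.1 TPM in control, and Rrn3 44.5 and 65.6 TPM with CX-5461, against 52.0 and 58.7 TPM in control. Taf1d had 160.3 and 110.0 TPM with CX-5461, against 104 and 113 TPM in control, and here CX-5461 replicate 1 was the high one. Taf1c had 1.96 and 4.94 TPM with CX-5461, against 5.34 and 2.83 TPM in control, the lowest level of the 10 in these embryos. Dnaaf1, which shares exon bases with Taf1c, was at 10.3 and 11.5 TPM with CX-5461, against 4.27 and 4.56 TPM in control embryos. Its part in the Taf1c level was not tested. Tbp had 6.31 and 21.5 TPM with CX-5461, against 11.5 and 10.4 TPM in control, and its 2 CX-5461 libraries bracketed both controls. The SE of the change ran from 0.28 for Taf1a to 0.51 for Tbp on the log2 scale, against 0.10 to 0.31 in ES cells. Changes of the size seen in TPM in ES cells for Rrn3, Taf1c, Taf1d and Sirt7 lay within the embryo intervals of those genes. The ES change of Ttf1 in TPM (1.49) lay above its embryo interval of -0.42 to 0.99, but its ES interval (0.75 to 2.23) overlapped that interval. The ES changes of Ttf1 by quantile scaling and with the length trend removed, given above, lay below 0.99. The difference between the embryo and the ES change was not tested, since the tables were normalized separately.

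**Figure D4:**
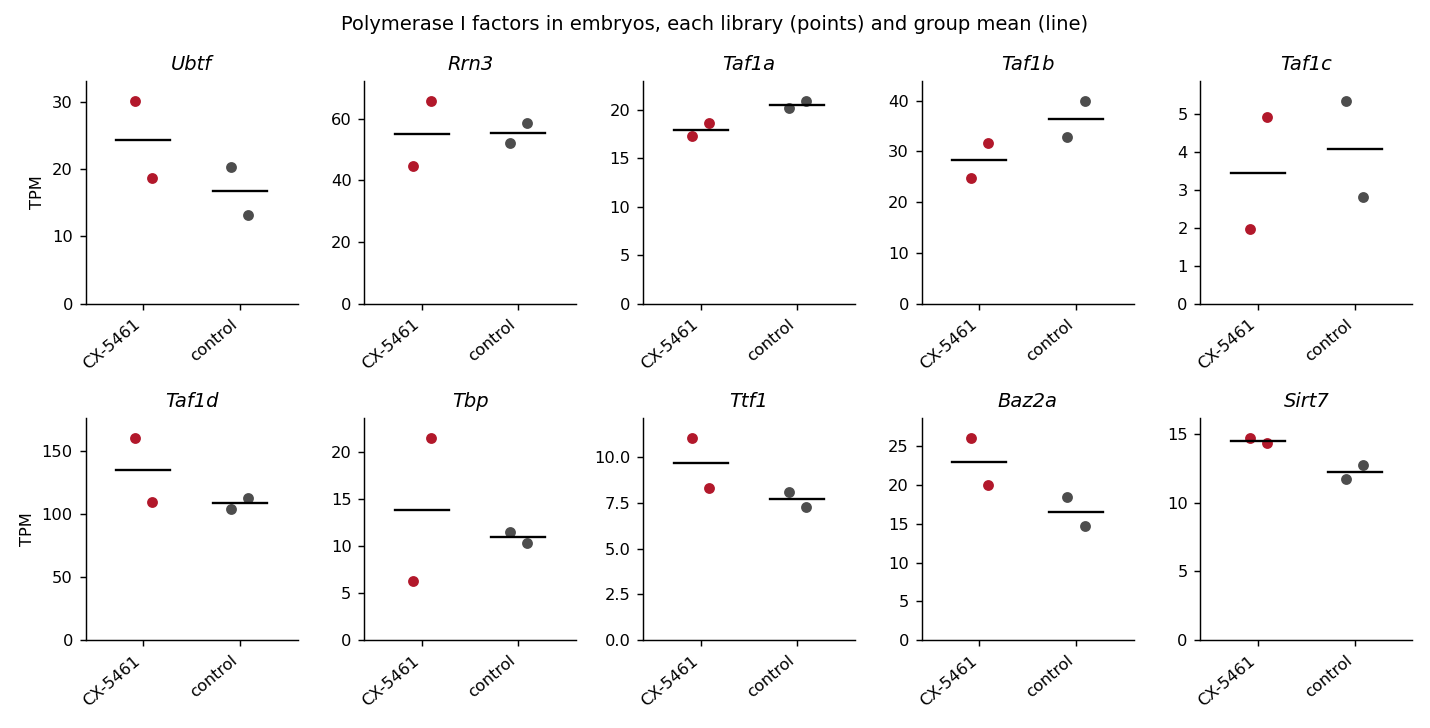
TPM of the 10 factors in the 4 embryo libraries, each panel from 0 (points, single libraries; line, mean of the 2). CX-5461 and control do not overlap for Taf1a, Taf1b, Ttf1, Baz2a and Sirt7, and the 2 CX-5461 points of Tbp lie at 6.31 and 21.5 TPM.

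The embryo libraries carried 5825 to 7874 TPM of 13 trophectoderm markers with CX-5461, against 6794 to 6799 TPM in control, and the 24 fibroblast markers summed to 62.4 to 72.2 TPM with CX-5461, against 50.8 to 75.3 TPM in control. Among the fibroblast markers Col1a2 was at 0 in 3 of the 4 embryo libraries. The 11 maternal oocyte markers summed to 2.39 to 6.39 TPM with CX-5461, against 1.95 to 2.12 TPM in control.

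The order of levels was similar at its top in both kinds of material, which were prepared by different protocols and are set side by side with no test. In control ES cells Taf1d led at 264 TPM, followed by Rrn3 (150.0), Ubtf (146) and Baz2a (72.9), and the lowest were Taf1c (16.6) and Ttf1 (14.3); Rrn3 and Ubtf overlapped between libraries, as did Taf1c and Ttf1. In control embryos Taf1d (109 TPM) and Rrn3 (55.4) again led, and Taf1c was the lowest (4.08). Ubtf averaged 16.7 TPM in control embryos, not clear of Taf1a above it (20.5) or Baz2a below it (16.6). Across ES groups the mean order for Ttf1 was control, rapamycin, rotenone and CX-5461 from low to high, and control and rapamycin were not clear of each other. For Sirt7 it was control, rotenone, rapamycin and CX-5461, with rotenone and rapamycin overlapping.

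The genes whose level followed each called member most closely over the 8 ES libraries were found by Pearson's r of log2(TPM + 1), among the 11788 genes that averaged 5 TPM or more, as a description over libraries that share treatment and scale. For Ttf1 they were Etv3 (an ETS-family repressor, r = 0.997), Wdr47 (0.995) and Topors (a ubiquitin and SUMO ligase, 0.993). For Sirt7 they were Bfar (0.995), Slc2a6 (0.992) and Ercc4 (a DNA repair nuclease subunit, 0.987). For Taf1d they were Nono (a nuclear RNA-binding protein, 0.994), Gli2 (0.991) and Dtnb (0.988). Rrn3 was followed by Rint1 and Aqr (each 0.993) and Dnal1 (0.989), and Taf1c by Borcs6 (0.983), Hgs (0.968) and Cpt2 (0.965). Likeness was common: 2044 genes reached r above 0.9 with Ttf1 and 1616 with Rrn3, against 167 with Taf1d. Between members, r was 0.94 for Ttf1 with Rrn3 and -0.36 for Ttf1 with Taf1d.

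Of 13 subunits of polymerase I, 0 were called higher and 6 lower with CX-5461, with a median of -0.40 against 0.43 over all genes, where 42% of all genes were called higher and 11% lower. With rotenone 0 were higher and 8 lower, with a median of -0.41 against 0.27, where 30.6% and 9.57% of all genes were called in those directions. Named by size with CX-5461, Znrd1 (a small core subunit) was at -0.70, Polr2l at -0.62 and Polr2e at -0.62, the last 2 being subunits shared by the 3 polymerases; Polr1a, the largest subunit, was at 0.56 and Polr2k at 0.33, neither called. With rotenone Polr2l was at -0.74, Cd3eap at -0.73 and Polr1e at -0.72. Under the 3 other scalings the lower calls were 9, 7 and 9 of 13 with CX-5461 and 9, 7 and 9 with rotenone. No subunit was called higher. Lower calls also rose over all genes, from 1940 in TPM to 4389 of 17492, 4495 of 17638 and 4565 of 17638 with CX-5461. With rotenone they rose from 1688 to 3434, 3125 and 3102. By limma 0 subunits were called with rapamycin and 0 in embryos. At unadjusted p under 0.05 there were 0 in either, where 13.3% of all genes passed with rapamycin and 12.4% in embryos.

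Among 28 genes of rDNA chromatin and polymerase I regulation, 12 were called higher and 4 lower with CX-5461 (median 0.56), close to the 42% and 11% of all genes. Ptrf, whose product also builds caveolae and releases paused polymerase I transcripts, was at 1.90, Top2b (a DNA topoisomerase) at 1.40 and Ercc6 (the Cockayne syndrome B protein) at 1.20. The nucleolar proteins Fbl and Npm1 were among the 4 lower, at -0.79 and -0.66. With rotenone 6 of the 28 were higher and 3 lower (median 0.27), where 30.6% and 9.57% of all genes were, led by Ptrf at 1.37, Top2b at 0.89 and Ercc6 at 0.81. With other scalings the CX-5461 split was 4 higher and 10 lower (median-ratio), 6 and 4 (quantile) and 3 and 11 (length trend removed). Its direction thus turned with the scale. Over all genes the splits were 4594 and 4389 of 17492, 3827 and 4495 of 17638, and 4149 and 4565 of 17638. Ptrf is also strongly expressed in fibroblasts, whose markers were higher in the same libraries.

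Of 16 polymerase III factors, 6 were called higher and 0 lower with CX-5461 (median 0.51), where 42% and 11% of all genes were, among them Gtf3c1 at 2.68, Snapc1 at 0.93 and Gtf3c4 at 0.85. With rotenone 3 were higher and 1 lower (median 0.09), where 30.6% and 9.57% of all genes were. Of the 15 TFIID subunits other than Tbp, which direct polymerase II, 6 were higher and 2 lower with CX-5461 (median 0.16). These counts were near the 42% and 11% of all genes. Taf1 was at 1.20, Taf6 at 1.07 and Taf2 at 0.74. With rotenone 3 TFIID subunits were higher and 2 lower (median 0.01), against 30.6% and 9.57% of all genes. With CX-5461 the other scalings gave 2 higher and 4 lower, 1 and 3, and 2 and 3 among polymerase III factors, and 2 and 5, 3 and 6, and 2 and 6 among TFIID subunits, in the order median-ratio, quantile and length trend removed. Over all genes these scalings gave 4594 and 4389 of 17492, 3827 and 4495 of 17638, and 4149 and 4565 of 17638, in that order. By limma 0 genes of either list were called with rapamycin or in embryos. At unadjusted p under 0.05 there were 0 polymerase III factors and 2 TFIID subunits with rapamycin, where 13.3% of all genes passed. In embryos there were 2 and 0, where 12.4% of all genes passed.

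**Figure D5:**
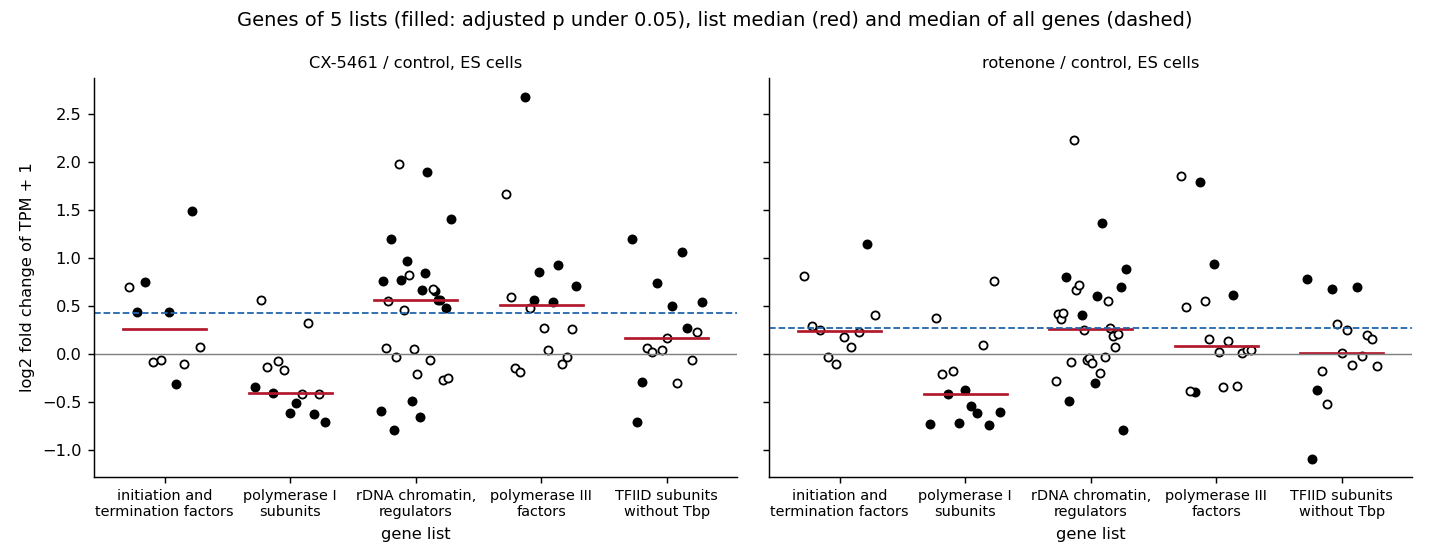
Log2 fold change of TPM + 1 (vertical axis) of the genes in 5 lists in CX-5461 and rotenone ES cells against control (filled, adjusted p under 0.05; red line, list median; dashed line, median of all genes). The polymerase I subunits have medians of -0.40 with CX-5461 and -0.41 with rotenone, below 0 and below all other lists.

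The 14 genes listed as relatives are like the members in family or only in name. Of these, Ubtfl1 and Sirt4 were called higher with CX-5461 against each of the other 3 ES groups. Sirt4 was picked after its values were seen. Ubtfl1, a Ubtf-like gene known from the preimplantation mouse embryo, stood at 5.90 and 4.67 TPM in the CX-5461 libraries, 0.285 and 0.212 TPM in the rapamycin libraries and 1.16 and 0.793 TPM in the rotenone libraries, against 0.229 and 0.672 TPM in the control ES cells. Both CX-5461 values were several TPM above all 6 others. Apart from them only rotenone replicate 1 reached 1 TPM, so Ubtfl1 passed the filter through the group where it was high. Its control values lay below the 1 added before the log. Its calls, here and under the alternatives below, are not independent of that selection. The change with CX-5461 was 2.13 ± 0.22 (SE, adjusted p = 0.000383 in limma). It was also called higher against rapamycin (2.33, adjusted p = 0.000378) and against rotenone (1.67, adjusted p = 0.0029). Sirt4, a mitochondrial sirtuin, stood at 25.2 and 20.4 TPM in the CX-5461 libraries, 12.7 and 11.7 TPM in the rapamycin libraries and 6.91 and 7.79 TPM in the rotenone libraries, against 9.19 and 12.8 TPM in the controls. Its change with CX-5461 against control was 1.00 ± 0.19 (SE, adjusted p = 0.00485 in limma), and by quantile scaling 0.38 and not called (adjusted p = 0.11).

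Ubtfl1 stayed called in CX-5461 against control under the 3 other scalings, at 1.87, 1.43 and 1.63, and without each library in turn, at 1.90 to 2.35. In embryos it was present in all libraries, at 7.95 and 9.60 TPM with CX-5461, against 9.89 and 8.90 TPM in control, with no call (-0.09, adjusted p = 0.909 in limma). Tbpl2, the oocyte paralogue of Tbp, was listed at 0 in all 12 libraries. Tbpl1 stood at 28.9 and 30.8 TPM with CX-5461, 25.6 and 35.9 TPM with rapamycin and 26.7 and 29.5 TPM with rotenone, against 21.7 and 30.0 TPM in control, and was not called. Of the 13 relatives tested, 7 were called higher and 0 lower with CX-5461 (median 0.93), against 42% and 11% of all genes, with Baz1a, a chromatin remodeller subunit, at 1.37 and Taf1 at 1.20 after Ubtfl1. Taf1 was also counted among the TFIID subunits above, so these lists are not separate. With other scalings this split was 6 and 1, 5 and 1, and 5 and 3. Over all genes it was 4594 and 4389 of 17492 (median-ratio), 3827 and 4495 of 17638 (quantile), and 4149 and 4565 (length trend removed). The counts of relatives called higher include Ubtfl1, which passed the filter through its CX-5461 libraries.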

How the data were processed

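The authors trimmed reads with Trimmomatic, aligned them to mm10 with HISAT2, removed duplicates with Picard and estimated gene TPM with StringTie on GENCODE annotation, and deposited 1 TPM table for ES cells and 1 for embryos; base calling was by CASAVA 1.8 per the labels. Embryo cDNA was amplified before sequencing, ES RNA was poly-A selected, and neither table holds counts. Removal of duplicates can compress abundant transcripts, and TPM moves with the total over all genes.

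Each library was scaled to 1000000 TPM, and genes with at least 1 TPM in at least 2 libraries of a table were kept. log2(TPM + 1) was tested with limma 3.58.1 in R 4.3.3 (empirical Bayes with a mean trend), in 1 fit over the 8 ES libraries in 4 groups and 1 over the 4 embryo libraries, for 6 comparisons, with calls at Benjamini-Hochberg adjusted p under 0.05 and intervals at 95%. The code was tested on simulated data. Gene positions and exon lengths came from GENCODE release 21 (GRCm38), which matched 53620 of 53715 identifiers, and promoters from RefSeq (GRCm38.p6). All 10 members were named, with at most 3 called genes per list by size of change and the 3 genes most like each called member. The members, lists and tests were chosen with earlier results of these data known. Same-numbered libraries did not deviate together, so numbers were not taken as pairs. Alternatives changed the pseudocount, filter, scaling, variance prior, fitted samples, replicate block and each library in turn.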

Additional observations from a re-analysis of the deposited data

How the results depend on the processing

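Counts of called members are for limma at adjusted p under 0.05. The counts of all genes called under the 3 other scalings stand beside the results above. For CX-5461 against control in ES cells (5 called), 3 were called with the replicate block and 3 with the 2 groups fitted alone, and 1 to 5 when 1 library was left out. For CX-5461 against rapamycin (3 higher, 1 lower), 0 were higher and 4 lower by median-ratio and without the length trend, and 1 and 3 by quantile scaling; the range over single omissions was 0 to 2. For CX-5461 against rotenone (2 called), 1 was called without the length trend, by median-ratio, by quantile scaling, with no filter and with a prior without trend, 0 with the replicate block, and 0 to 0 over single omissions. For rotenone against control (1 called), 2 were called with a filter at 5 TPM and 2 by median-ratio scaling, 0 higher and 1 lower by quantile scaling and without the length trend, 0 with no filter and 0 with the 2 groups alone, and 0 to 3 over single omissions. Rapamycin and embryo comparisons had 0 called members under every alternative run.

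With CX-5461 against control, Rrn3 reversed to -0.046 without the length trend and -0.042 by median-ratio, Taf1c to -0.022 by median-ratio and -0.13 by quantile scaling, and Ubtf to -0.54 without the length trend; Baz2a, not called in either, was at 0.70 in TPM and -0.07 without the length trend. The Taf1d call was also lost with the replicate block (adjusted p = 0.0679). With rotenone against control, Taf1d reversed to -0.59 without the length trend and -0.26 by median-ratio, both called lower. The cause was not tested, beyond the construction of these scalings. Deviations of same-numbered libraries correlated between -0.30 and 0.17 across genes in ES cells and at 0.05 in embryos, so the replicate block does not stand for a pairing. With embryo values as deposited, 438 genes were called higher and 31 lower over all genes, and 0 members. With 2 libraries a group and no read totals, small changes are limited by spread that could not be split into depth and biology.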
